A study of Mus musculus with 17 samples.

Results

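The genes described here are the activators of the circadian clock and genes expressed in their phase: Arntl, Npas2, Clock, Cry1, Nfil3 and Rora. They were taken by symbol from the table of raw counts, where they are 6 of 23719 entries, and all 6 passed the filter on low counts that left 14146 genes tested. They were selected on the difference in counts between GWI and Control colons of these same mice, which was already known, so that difference is given below as a description. Where members are counted past a threshold of the fit over all genes, the count only sorts them and is no test of them. The study modelled Gulf War illness (GWI), a chronic disorder of veterans, in male C57BL/6 mice aged 32 to 34 weeks. The 9 Control mice were given water. The 8 GWI mice drank water with pyridostigmine bromide (PB), which inhibits acetylcholinesterase, for 7 days at a dose of 2 mg/kg, then recovered over 21 days, and colons were collected at day 30. Poly(A)-selected RNA of each colon was sequenced, and the total count per mouse was 16744096 to 20741212 in Control and 16293537 to 18389686 in GWI colons.

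In the circadian clock, ARNTL (also called BMAL1) pairs with CLOCK or NPAS2 and activates genes that carry E-boxes in their promoters, among them the genes of the PER and CRY repressors that later shut the pair down. A second loop is formed by the ROR receptors, which activate genes through an element called RORE, and by the REV-ERB receptors (Nr1d1 and Nr1d2), which repress the same genes, so that Arntl, Npas2, Clock, Cry1 and Nfil3 tend to peak when REV-ERB levels are low. Most cells of the gut hold such a clock, and its phase follows feeding as well as light. The time of day at which each colon was collected is not given in the sources used here, so the level of a clock gene cannot be separated from the hour of collection.

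Markers of colon were present in every mouse. Car1, a carbonic anhydrase of colonic enterocytes, was between 1990 and 29300 CPM (read counts scaled to library size and by edgeR's trimmed means) in Control and between 3860 and 18800 CPM in GWI colons. Muc2, the mucin of goblet cells, was 4610 to 10100 CPM in Control and 8200 to 16700 CPM in GWI colons. Some colons stood apart. Hoxb13, a homeobox gene of the most distal gut, was 55.5 CPM in Control 1 and 11.4 CPM in GWI 5, and at most 2.67 CPM in the other Control and 1.83 CPM in the other GWI mice. The same 2 mice had the highest Aqp8 of their groups, a water channel of colonic enterocytes (1930 and 1050 CPM), and the lowest Car1 (1990 and 3860 CPM). Hoxd13, another homeobox gene among the colon markers, did not set them apart. It was 2.08 CPM in Control 1 against 2.56 CPM in Control 2, and 0.568 CPM in GWI 5 against 1.38 CPM in GWI 6. In Control 9, the 10 most abundant genes took 23.1% of all counts. They took 9.72% to 17.3% in the other Control mice, highest in Control 8, and 11% to 12.8% in the GWI mice. Fabp6, a bile acid binding protein of the ileum, was 314 CPM in Control 7 and 119 CPM in Control 6. It was at most 6.90 CPM in the other Control mice and at most 5.86 CPM in any GWI mouse. The summed small intestine list was 839 CPM in Control 7 and 330 CPM in Control 6. Values are therefore given with and without these mice where they decide a result.

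Sorted by the threshold used for all genes, an adjusted p of 0.05 in edgeR's quasi-likelihood fit, 3 of the 6 genes fell on the higher side in GWI colons (Arntl, Npas2 and Nfil3), 1 on the lower (Rora) and 2 on neither (Clock and Cry1). Across all tested genes 26.8% were called, 13.4% higher and 13.5% lower, and nothing is read from the members' count, because this contrast chose them. Their median log2 fold change was 0.85, beside −0.06 over all tested genes. In Npas2 and Nfil3, 2 of the 6, every GWI mouse lay above every Control mouse, as did 1.83% of all tested genes, and 2.35% did not overlap in either direction. By an unadjusted p under 0.05 with an absolute log2 fold change over 1, the same sorting counts the 3 higher members and not Rora, beside 2.42% of all tested genes. In bulk tissue, more or fewer cells of a type and more or less RNA per cell cannot be told apart.

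**Figure D1:**
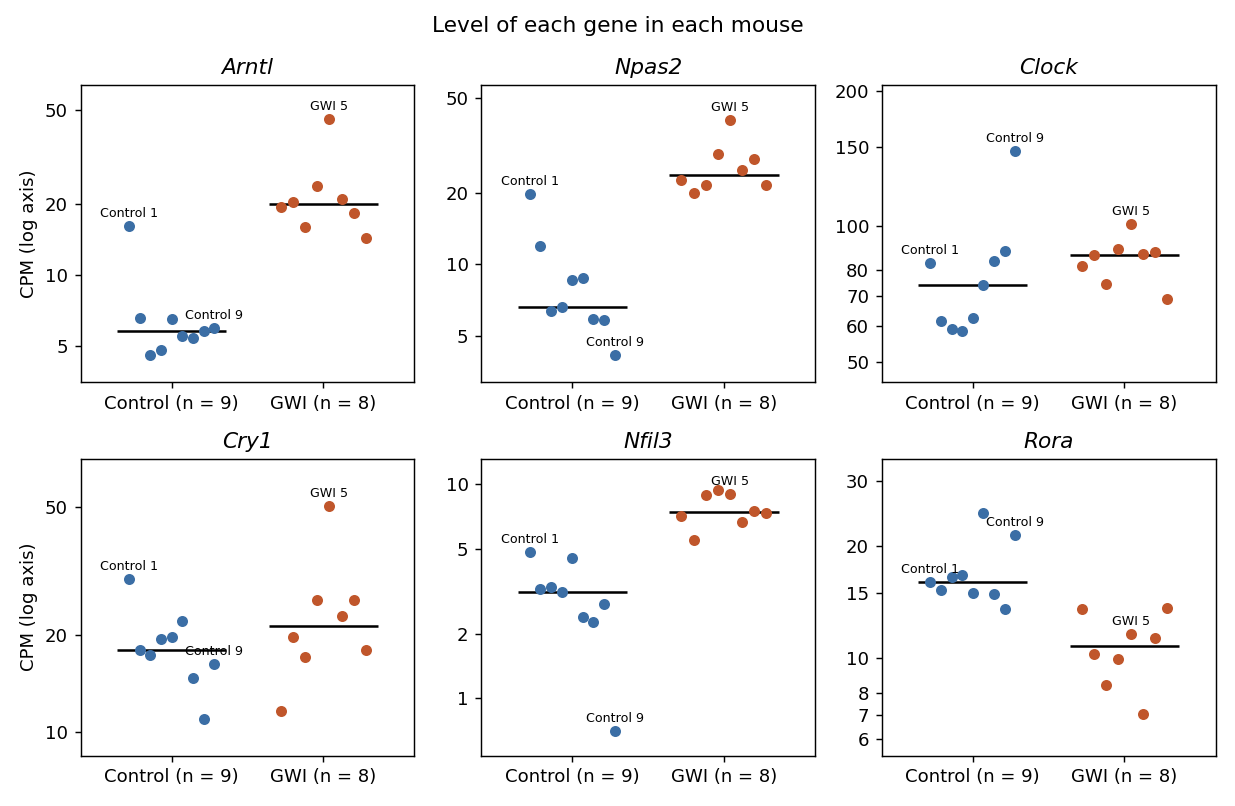
Level of each of the 6 genes in each mouse, in CPM on a log axis, for 9 Control (blue) and 8 GWI (orange) mice; horizontal lines are group medians. Every GWI mouse lies above every Control mouse in Npas2 and Nfil3, while Control 1 (16.1 CPM) reaches the GWI mice in Arntl.

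Arntl, the partner that the other activators require, ranged from 4.57 to 16.1 CPM with a median of 5.76 CPM in Control mice. In GWI mice it ranged from 14.3 to 45.5 CPM with a median of 19.8 CPM. Control 1 was the highest of its group and lay above GWI 8 (14.3 CPM) and GWI 3 (15.9 CPM), so the groups overlapped, and 6 of 8 GWI mice were above all Control mice. The mean was 6.79 ± 3.56 CPM (SD, n = 9) in Control and 22.3 ± 9.83 CPM (SD, n = 8) in GWI colons, 3.28-fold higher, with a log2 fold change of 1.72 (SE 0.26). Without Control 1 and GWI 5, a choice made after seeing the data, the means were 5.63 ± 0.718 CPM (SD, n = 8) and 19.0 ± 3.15 CPM (SD, n = 7), and the groups did not overlap. The raw counts were 85 to 255 in Control and 241 to 722 in GWI mice. The gene lies on the forward strand of chr7:113207465-113314126 (GENCODE M21, GRCm38), and an exon of Gm45355 on the other strand overlaps its exons. The sources used here do not state whether counting used strand, so reads of the 2 genes cannot be told apart.

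Npas2, which can take the place of CLOCK as partner of ARNTL, ranged from 4.18 to 19.8 CPM in Control mice (median 6.63 CPM). In GWI mice the range was 19.9 to 40.5 CPM (median 23.8 CPM). The groups did not overlap, but Control 1 (19.8 CPM) nearly met GWI 2 (19.9 CPM), and the next Control mouse, Control 2, was at 11.9 CPM. The mean rose from 8.67 ± 4.72 CPM (SD, n = 9) to 26 ± 6.65 CPM (SD, n = 8), and the log2 fold change was 1.58 (SE 0.25). Without Control 1 and GWI 5 the means were 7.29 ± 2.39 CPM (SD, n = 8) and 23.9 ± 3.39 CPM (SD, n = 7). The gene lies at chr1:39193731-39363236.

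Clock, the usual partner of ARNTL, ranged from 58.6 to 147 CPM in Control mice (median 74.1 CPM) and from 68.8 to 101 CPM in GWI mice (median 86.3 CPM). The highest value was that of Control 9, whose neighbour in the group was at 87.9 CPM, and the GWI mice lay inside the Control range. The log2 fold change was 0.08 (SE 0.16), smaller than the spread between mice. Without Control 9 the mean was 71.3 ± 12.3 CPM (SD, n = 8) in Control against 84.4 ± 9.84 CPM (SD, n = 8) in GWI colons. The gene lies on the reverse strand of chr5:76209868-76304792.

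Rora encodes a nuclear receptor that activates through ROREs, and it was the member sorted as lower, though not with the covariate described below. It ranged from 13.5 to 24.7 CPM in Control mice (median 16.0 CPM) and from 7.05 to 13.6 CPM in GWI mice (median 10.8 CPM). Control 6 and Control 9 were the highest, and of the GWI mice only GWI 8 reached the lowest Control mouse, Control 8. The mean was 17.1 ± 3.62 CPM (SD, n = 9) in Control and 10.7 ± 2.30 CPM (SD, n = 8) in GWI colons, with a log2 fold change of −0.67 (SE 0.15). The gene spans chr9:68653786-69388246, and an exon of Gm15511 on the other strand overlaps its exons.

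Cry1, a repressor of the activators whose own transcript appears late in their phase, ranged from 11 to 29.9 CPM in Control mice (median 18.0 CPM) and from 11.6 to 50.4 CPM in GWI mice (median 21.4 CPM). The groups overlapped, and GWI 5 alone lay above all Control mice. Without GWI 5 the GWI mice ranged from 11.6 to 25.8 CPM, inside the Control range. The log2 fold change was 0.35 (SE 0.23), and 0.11 without GWI 5. The gene lies on the reverse strand of chr10:85131700-85185064.

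Nfil3 encodes a bZIP repressor that binds D-boxes, the sites of the PAR bZIP activators. It ranged from 0.697 to 4.80 CPM in Control mice (median 3.12 CPM) and from 5.49 to 9.41 CPM in GWI mice (median 7.43 CPM). No mice of the groups overlapped, and Control 9 was the lowest. The mean was 3.01 ± 1.22 CPM (SD, n = 9) in Control and 7.68 ± 1.33 CPM (SD, n = 8) in GWI colons, with a log2 fold change of 1.35 (SE 0.24). It had the fewest counts of the members, 10 to 92 in Control and 97 to 166 in GWI mice, so counting error weighs most here. The gene lies on the reverse strand of chr13:52967209-52981073.

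Per kilobase of exon, the mean level in Control colons was highest in Clock (5.81 RPKM, CPM per kilobase of annotated exon) and Cry1 (5.61 RPKM). Npas2 (1.81 RPKM), Nfil3 (1.49 RPKM), Rora (1.31 RPKM) and Arntl (0.903 RPKM) followed. In GWI colons Cry1 (7.17 RPKM), Clock (6.15 RPKM) and Npas2 (5.42 RPKM) were highest, then Nfil3 (3.79 RPKM) and Arntl (2.96 RPKM), and Rora was lowest (0.820 RPKM). Annotated exons of all isoforms enter the length, so neighbours in this order are not told apart.

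Marker lists were counted in the same fit, in which 26.8% of all tested genes were called, 13.4% higher and 13.5% lower. Of 10 smooth muscle markers, 7 were lower and 0 higher in GWI colons, and their summed level was 3690 to 23900 CPM (median 11600 CPM) in Control and 3660 to 11800 CPM (median 5140 CPM) in GWI mice, with Myh11 the most abundant and none at 0. Of 11 epithelial markers, 4 were higher and 0 lower, with a summed level of 19600 to 40300 CPM in Control and 21500 to 39300 CPM in GWI mice, Car1 the most abundant and none at 0. Of 8 adipocyte markers, 2 were higher and 0 lower, with a summed level of 246 to 559 CPM (median 315 CPM) in Control and 278 to 1590 CPM (median 594.5 CPM, highest in GWI 7) in GWI mice, Pck1 the most abundant and none at 0. Of 8 immediate early genes, 2 were higher and 0 lower, with a summed level of 231 to 966 CPM (median 372 CPM, highest in Control 1) in Control and 412 to 893 CPM (median 614.5 CPM) in GWI mice, Jun the most abundant and none at 0. Counted in either direction, the calls in these last lists are about as frequent as over all genes (26.8%), so nothing is read from them. The adipocyte markers called were Cidec and Pck1, while Adipoq, Plin1, Lep, Cfd, Fabp4 and Car3 were not. The median log2 fold change was 1.03 for adipocyte markers (8 of 8 positive) and 0.61 for immediate early genes (6 of 8 positive). Enteric neuron and immune markers had 0 called in either direction. Their median log2 fold changes were −0.58 (0 of 10 positive) and −0.31 (1 of 6 positive). The summed enteric neuron markers had a median of 260 CPM in Control and 185 CPM in GWI mice. For the immune markers it was 29.4 and 23.9 CPM. With the difference of the muscle and epithelial scores as a covariate, the log2 fold changes were 2.00 for Arntl, 2.08 for Npas2, 1.72 for Nfil3, 0.81 for Cry1, −0.44 for Rora and −0.18 for Clock, whose sign differed from the 0.08 without the covariate. In that fit Rora no longer fell past the threshold and Cry1 did. The score difference itself ran with the group, at −1.92 to 0.63 in Control and −2.48 to −1.06 in GWI mice. Of the Control mice only Control 8 (−1.79) and Control 9 (−1.92) lay inside the GWI range. Every value given with this covariate therefore leans on few mice and cannot cleanly separate the score from the group. Beyond these fits, the part of tissue makeup or of the immediate early genes in the result was not tested.

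The rest of the clock was taken from lists of 31 genes, of which 30 were tested. In edgeR's quasi-likelihood fit 4 were higher, 10 lower and 16 not called, beside 13.4% higher and 13.5% lower of all tested genes, so the higher count is no more than the share over all genes. Their median log2 fold change was 0. Some sample names within a group start alike, with no meaning given, and with such mice as a correlated block in limma-voom (the name block, correlation 0.621) 1 was called higher and 7 lower, beside 376 higher and 94 lower of all 14146 tested genes. Without Control 6 and Control 7, 1 was called higher. Among 9 repressors of the clock, 0 were higher and 5 lower. Per2, a partner of the CRY proteins, was 24.9 ± 7.45 CPM (SD, n = 9) in Control and 13.2 ± 2.71 CPM (SD, n = 8) in GWI colons (log2 fold change −0.92, SE 0.17, edgeR adjusted p = 0.00174). Ciart, a repressor of the CLOCK and ARNTL pair, had every GWI mouse below every Control mouse, as did 0.523% of all tested genes (log2 fold change −1.14, SE 0.19, edgeR adjusted p = 0.000787). Per3 (−0.70), Bhlhe41 (−1.20) and Nr1d2 (−0.53) were the others that were lower, and Nr1d2 was not with the name block (adjusted p = 0.109 in limma). Per1 (0.21), Cry2 (0.24), Nr1d1 (0.24) and Bhlhe40 (0.36) did not pass the threshold. With the muscle minus epithelium covariate Cry2 (0.63, edgeR adjusted p = 0.0349) and Bhlhe40 (0.62) did, and Nr1d1 (0.76) did not. Bhlhe40 also passed without Control 1 and Control 9 (0.33), so the 0 higher repressors do not hold in every fit. All 3 PAR bZIP activators, which bind the D-boxes that NFIL3 also binds, were lower: Dbp by a log2 fold change of −1.12, Tef by −0.64 and Hlf by −1.61. With the same covariate Hlf was at −0.78, Dbp at −0.79, Tef at −0.56 and Bhlhe41 at −0.64, all still called. Exons of genes on the other strand overlap those of Dbp (Sphk2), Nr1d1 (Thra), Tef, Cry2, Bhlhe40, Bhlhe41 and, given below, Csnk1d, Csnk1e, Sirt1, Ncor1 (Pigl and Ttc19) and Tspan4 (Chid1), so their values carry the limit given for Arntl.

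**Figure D2:**
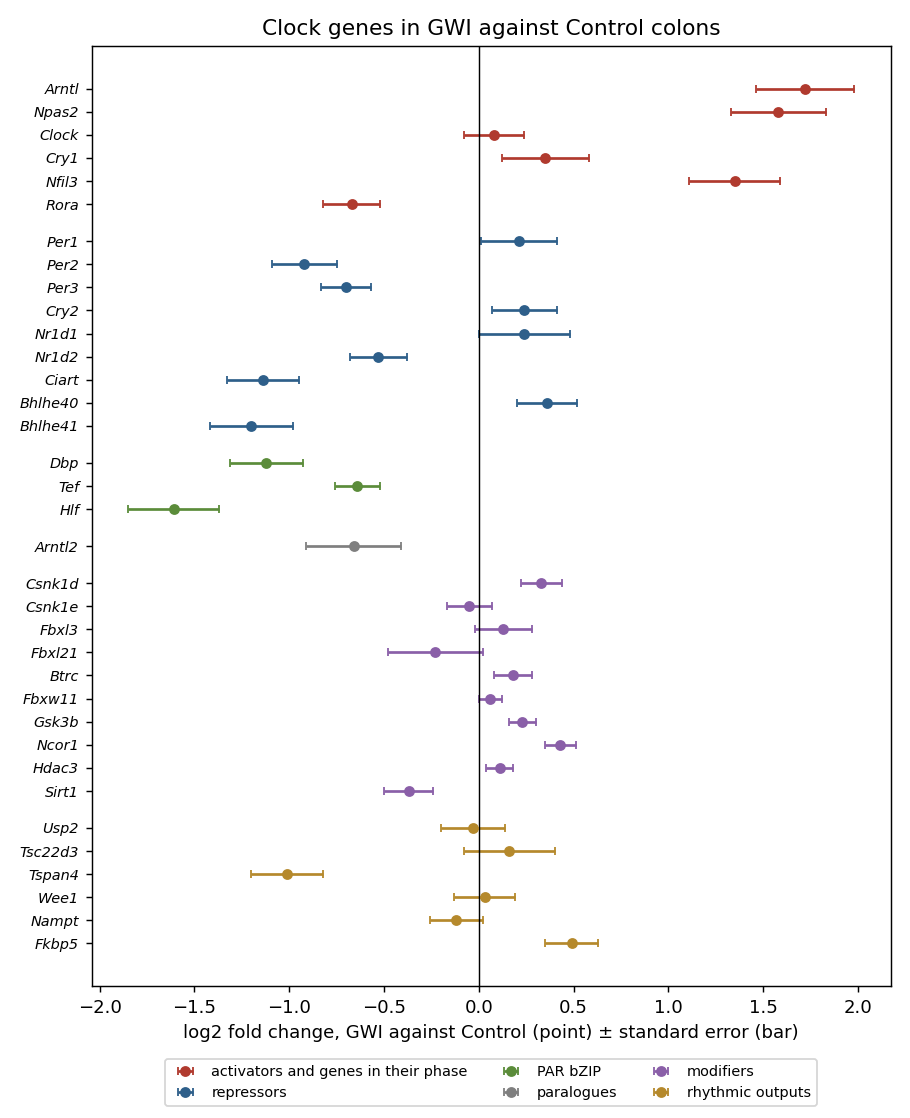
Log2 fold change of GWI against Control colons (points) with its standard error (bars) from edgeR for the 6 genes described here and 29 other clock genes, by role. The members span from 1.72 for Arntl to −0.67 for Rora, and the PAR bZIP genes lie between −0.64 and −1.61.

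Of 10 modifiers of clock proteins, 3 were higher and 1 lower, beside 26.8% of all tested genes called in either direction, and with the name block 1 of these, Ncor1, was still called. Ncor1, a corepressor recruited by REV-ERB, was higher in every GWI mouse than in every Control mouse, as were 1.83% of all tested genes (log2 fold change 0.43, SE 0.08, edgeR adjusted p = 0.00128). The kinases Csnk1d (0.33) and Gsk3b (0.23) were higher and the deacetylase Sirt1 (−0.37) was lower. With the name block their adjusted p in limma was 0.132, 0.215 and 0.23, and of 31 other fits they were called in 14, 23 and 17. Among the paralogues of the members, Arntl2 (−0.66, edgeR adjusted p = 0.0587) did not pass but was called in 9 of 31 other fits. Rorb was not tested because of low counts. Of 6 rhythmic output genes, Fkbp5 was higher (0.49) and Tspan4 lower (−1.01), a count near the share over all genes. Neither was called with the name block, nor with the muscle minus epithelium covariate (0.36 and −0.38).

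Within a mouse, the level of Arntl was set against that of its outputs. Arntl was selected on its difference between the groups, which each value here contains, so the values are a description and nothing further is read from them. The difference of log2 CPM of Arntl and Per3 was −2.80 to −1 (median −2.58) in Control and −0.90 to 1.45 (median 0.105) in GWI mice. For Arntl and Dbp it was −4.55 to −2.22 (median −4.02) in Control and −2.31 to 0.53 (median −0.925) in GWI mice. For Arntl and Nr1d1 it was −4.74 to −2.87 (median −4.01) in Control and −3.31 to −1.02 (median −2.71) in GWI mice. The groups overlapped in the differences with Dbp and Nr1d1 and did not in that with Per3.

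Co-variation was examined within each group, which does not use the difference between the groups. The 15 pairs of members in each of the 2 groups gave 30 correlations of log2 CPM, tested with two-sided exact permutation of pairings and Benjamini-Hochberg adjustment over all 30. Of the 15 pairs, 13 were positive in GWI mice (median r = 0.38) and 9 in Control mice (median r = 0.34). Without GWI 5 it was 8 (median r = 0.14) in GWI mice, and in Control mice 7 without Control 1 (median r = −0.05) and 9 without Control 8 (median r = 0.19), so these summaries rest on single mice. In Control mice 0 pairs passed an adjusted p of 0.05, and 4 had an unadjusted exact p under it. In GWI mice 1 pair passed by r and 6 had an unadjusted exact p under it, and by rho 0 passed in either group.

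The pair was Arntl and Clock in GWI mice (r = 0.89, exact p = 0.00144, adjusted p = 0.0432; rho = 0.86, exact p = 0.0107). Without GWI 5 and GWI 8, the mice farthest from the median of Arntl, r was 0.82. The count of 1 pair became 0 when GWI 1, 3, 4, 5, 6 or 8 was left out and 4 without GWI 2, and each of these has fewer mice. Over 22 alternatives, some leaving out Control mice only, r of Arntl and Clock in GWI mice was 0.86 to 0.96. The pair passed in 14 of them. In Control mice the same genes had r = 0.17 (exact p = 0.617), and the difference between the groups was not tested.

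Arntl and Npas2 had r = 0.80 in Control (exact p = 0.0204, adjusted p = 0.121; rho = 0.48, exact p = 0.194) and r = 0.87 in GWI mice (exact p = 0.0144, adjusted p = 0.121; rho = 0.64, exact p = 0.0962). Neither passed after adjustment, and both rest on single mice: without the 2 mice farthest from the median, among them Control 1 and GWI 5, r was 0.39 and 0.47. Npas2 and Cry1 had r = 0.75 in Control (exact p = 0.0244, adjusted p = 0.121; rho = 0.85, exact p = 0.00607) and r = 0.87 in GWI mice (exact p = 0.00739, adjusted p = 0.111; rho = 0.76, exact p = 0.0368), and r was 0.57 and 0.50 without the 2 farthest mice. Clock and Nfil3 had r = −0.81 in Control mice (exact p = 0.0285, adjusted p = 0.121; rho = −0.53, exact p = 0.148), which fell to −0.31 without Control 4 and Control 9. No pair with Rora passed in either group. As residuals on the muscle minus epithelium score, Nfil3 and Rora did in Control mice (r = −0.93, adjusted p = 0.0111 by exact permutation).

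**Figure D3:**
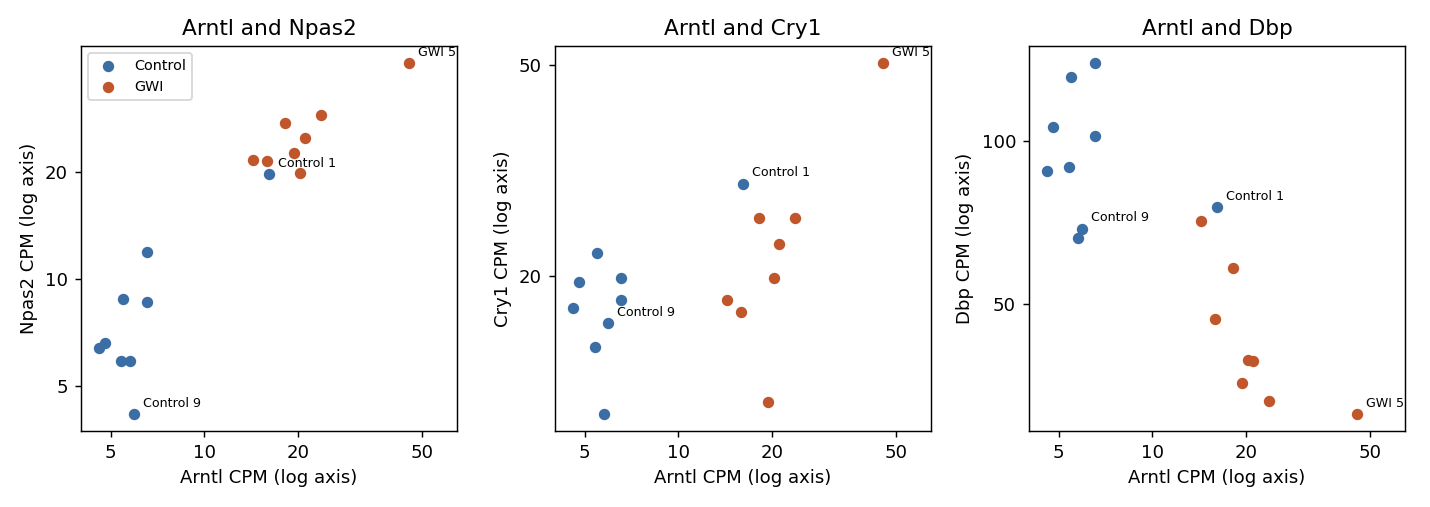
CPM of Arntl (horizontal, log axis) against Npas2, Cry1 and Dbp (vertical, log axes) in each of 9 Control (blue) and 8 GWI (orange) mice. Control 1 and GWI 5 are the highest of their groups in Arntl, Npas2 and Cry1, and GWI 5 has the lowest Dbp (31.4 CPM).

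Arntl was also set against the 12 repressor and PAR bZIP genes, 24 correlations in all. In GWI mice 11 of 12 were negative (median r = −0.41) and in Control mice 3 of 12 (median r = 0.22). Without Control 1 it was 5 of 12 in Control mice (median r = 0.10) and without Control 4 it was 4 (median r = 0.33). In GWI mice it was 12 without GWI 5 (median r = −0.59) and 9 without GWI 8 (median r = −0.30). The difference between the groups was not tested. By exact permutation 0 of 24 passed an adjusted p of 0.05, while 4 in GWI and 0 in Control mice had an unadjusted exact p under it. The 4 were Nr1d2 (r = −0.86, exact p = 0.00444, adjusted p = 0.0949), Ciart (r = −0.79, exact p = 0.00791, adjusted p = 0.0949), Dbp (r = −0.74, exact p = 0.0361, adjusted p = 0.265) and Tef (r = −0.67, exact p = 0.0463, adjusted p = 0.265). In the same order rho was −0.83 (exact p = 0.0154), −0.76 (exact p = 0.0368), −0.90 (exact p = 0.00456) and −0.62 (exact p = 0.115), and r without GWI 5 and GWI 8 was −0.66, −0.59, −0.70 and −0.43.

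By the mean of the r in the 2 groups, Npas2 ranked 127 of 14145 genes by likeness to Arntl, Cry1 520, Clock 1619, Nfil3 3559 and Rora 7936. The r behind the ranks of Npas2, Cry1 and Nfil3 rests on single mice. Without Control 1, r with Arntl in Control mice went from 0.80 to 0.37 for Npas2, from 0.63 to −0.05 for Cry1 and from 0.36 to −0.05 for Nfil3. Without GWI 5, r in GWI mice went from 0.87 to 0.52, from 0.80 to 0.36 and from 0.31 to −0.06 in the same order. The genes most like Arntl were Kcnf1 (r = 0.98 in Control and 0.93 in GWI mice), Sycn and Bmp8a, and the least like were Hoxd3os1 (−0.94 and −0.96), Galk1 and Hoxb7. In Control mice most of these rest on Control 1, without which r was 0.83 for Kcnf1, 0.21 for Sycn, 0.54 for Bmp8a, −0.15 for Hoxd3os1, −0.14 for Galk1 and 0.30 for Hoxb7, whose sign reversed. In GWI mice without GWI 5, r in the same order was 0.71, 0.75, 0.71, −0.86, −0.85 and −0.69. The genes most like Npas2 were Sbf1, Zc3h3 and Bcl3, those most like Cry1 were Fos, Lrrfip1 and Fancg, and those most like Clock were Socs4, Mbnl2 and Map3k2. For Nfil3 they were Pik3r2, Sbk1 and Gga1, and for Rora they included Ss18 and Tet1.

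Promoter sequences are shown because genes of this phase are known targets of factors that bind ROREs and E-boxes. All 6 members had RefSeq promoter windows (GRCm38.p6, 250 bases before to 50 after a start), searched on both strands for a RORE of 10 bases, the E-box CACGTG and a D-box (TTATGTAA or TTACGTAA). A RORE was held by 0.773% of all 32851 windows, an E-box by 7.15% and a D-box by 1.06%. The shorter core TAGGTCA, added after seeing the data and contained in some of the RORE letters, was held by 2.61%. Capitals mark the match in each sequence.
Arntl, RORE, forward strand of chr7:113207528-113207557: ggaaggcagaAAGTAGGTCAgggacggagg
Cry1, E-box, reverse strand of chr10:85185097-85185126: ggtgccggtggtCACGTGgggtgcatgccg
Nfil3, core read on the opposite strand, printed as the reverse strand of chr13:52981033-52981062: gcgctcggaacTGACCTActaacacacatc
The Arntl match lies 28 bases after the second of its starts, and the windows of Npas2, Clock and Rora held none of these letters. A match is a description of the sequence, not a binding site.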

How the data were processed

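Colon RNA of 9 Control and 8 GWI mice was analysed. The authors used Trimmomatic 0.36 for trimming, STAR 2.5.2b for mapping to GRCm38 and featureCounts for counting, and deposited raw counts without normalization. The annotation release and strand setting are not given in the sources used here. Counts were filtered with filterByExpr, scaled by TMM and fitted with edgeR 4.0.16 (robust quasi-likelihood, glmQLFTest) in R 4.3.3, with condition as the only term and adjustment over 14146 genes. Log2 CPM used a prior count of 2. Correlations ran in Python 3.11.15 with scipy 1.17.1. The steps were tested on simulated data. DESeq2 1.42.0 and limma 3.58.1 were alternatives. Members and lists were chosen with earlier results of these data known. Named genes are the members, listed clock genes, and the 3 genes most like each member (for Arntl also the 3 least like); markers were named to describe tissue. Of these, 2 genes are not reported here, though counts over lists include them. Each column was treated as an independent mouse. Some sample names start alike, with no meaning given, so p-values may be too small.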

Additional observations from a re-analysis of the deposited data

Results flagged for a closer look

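For 18 clock genes and 8 marker lists in 2 groups, 52 sets of mice were examined for a highest or lowest mouse far from the others, and 11 were found. The check used CPM without a log transformation, and all 11 were highest mice. Chance flags about 1 in 20 groups only where values are normally distributed, which may not hold for CPM. A log scale was not examined and could flag other mice. The lists also share mice, so nothing is read from the number of flags. Control 1 was far above the other Control mice in Arntl (16.1 CPM, next 6.54 CPM), in Npas2 (19.8 CPM, next 11.9 CPM) and in the summed immediate early genes (966 CPM, next 456 CPM). GWI 5 was far above the other GWI mice in Arntl (45.5 CPM, next 23.7 CPM), Npas2 (40.5 CPM, next 29.0 CPM) and Cry1 (50.4 CPM, next 25.8 CPM). Control 9 was far above the others in Clock (147 CPM, next 87.9 CPM) and Nr1d2 (278 CPM, next 177 CPM). GWI 8 was far above the others in Bhlhe41 (7.79 CPM, next 4.60 CPM). The summed small intestine markers were far highest in Control 7 (839 CPM, next 330 CPM), and the summed adipocyte markers in GWI 7 (1590 CPM, next 733 CPM).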

How the results depend on the processing

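Over 31 other fits the log2 fold change was 1.48 to 2.00 for Arntl, 1.46 to 2.08 for Npas2, 1.14 to 1.72 for Nfil3, −0.77 to −0.44 for Rora, −0.18 to 0.37 for Clock and 0.11 to 0.81 for Cry1. This is a description, as the contrast chose these genes. Clock fell past the threshold only in limma-voom with quality weights (0.37, higher), and Cry1 only with the covariate (0.81). The members called lower numbered 0 in place of 1 with the muscle minus epithelium covariate and at an unadjusted p under 0.05 with an absolute log2 fold change over 1. Genes called across the table numbered 3792, against 8091 with quality weights, 342 at the unadjusted threshold, and 470 (376 higher, 94 lower) in limma-voom with mice whose sample names start alike as a correlated block (correlation 0.621). Leaving out 1 mouse gave 2781 to 4818. Upper-quartile factors called 1214 higher and 2992 lower (1889 and 1903 with TMM) and moved the median from −0.06 to −0.15.

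With the replicate number as a block, 2241 genes were called and other clock genes called higher numbered 2. The numbers do not pair the mice: r of deviations over 8 numbers was −0.51 to 0.11, and no mouse matched its own number best.

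Other clock genes called higher, 4, became 2 with upper-quartile factors, library size alone or no filter, 1 with the name block or without Control 6 and 7, 0 at the unadjusted threshold, and 2 to 5 leaving out 1 mouse. Those called lower, 10, became 5 at the unadjusted threshold. Csnk1e changed from −0.05 to 0.33 with the covariate.

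Positive pairs of members past adjusted p 0.05 in GWI mice, 1, became 0 with DESeq2 size factors or without Control 1 and GWI 5 (added after seeing the data), 4 as residuals on the muscle minus epithelium score, and 0 to 4 leaving out 1 mouse. In Control mice, 0 became 1 with library size alone, and 1 positive and 1 negative as residuals. Negative pairs of Arntl with repressors in GWI mice, 0, became 3 with library size alone. The cause was not tested. Counting error limits Nfil3 most.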
